A study of Mus musculus with 5 samples.

Results

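The tetraspanins of microglia examined here were 7 genes, Cd9, Cd63, Cd81, Cd82, Cd37, Cd53 and Cd151, chosen by symbol as members of the family at the myeloid surface and the lysosomal membrane. They were 7 of the 56748 genes in the count table, and all 7 were among the 17724 genes with enough counts to be tested. RNA had been taken from CD11b-positive brain cells, without cerebellum, of 5 mice aged 7 months. Of these, 3 were 5xFAD/Cd5l tg/wt mice (replicates 1, 2 and 3), called Cd5l-transgenic here, in which a human PDGF-B promoter drives a mouse Cd5l transgene in 5xFAD animals. The other 2 were 5xFAD mice (replicates 1 and 3), a model of amyloid plaque formation, so that both groups carry the amyloid transgenes. Titles name CD11b-positive cells while some descriptions name whole brain tissue, and neither sex nor strain is stated. Each title names 1 mouse per library, wild-type mice were not analysed here, and p-values measure the spread between these mice.

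Tetraspanins are small membrane proteins that cross the membrane 4 times and gather integrins, immunoglobulin-like proteins and proteases into shared patches of membrane. CD9, CD81 and CD63 are widely used as markers of extracellular vesicles, and CD63 recycles between the surface, multivesicular bodies and lysosomes. CD37 and CD53 are largely restricted to leukocytes. In microglia, Cd9 and Cd63 are counted among the genes of the plaque-associated state. CD5L belongs to the scavenger receptor cysteine-rich family and is released by macrophages, and the study compared brain cells of plaque-bearing mice with and without its transgene.

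The start-site windows of 4 members are shown. Of these, Cd63, Cd9 and Cd37 had wide ranges and peaked in 5xFAD replicate 1. Cd53, restricted to leukocytes like Cd37, stayed within a narrow range. Each window runs from 250 bases before to 50 bases after the RefSeq start, 5′ to 3′ on the gene's strand. Positions refer to GRCm38.p6 (chr10:128909095-128909394 on the plus strand for Cd63, and on the minus strand chr6:125494711-125495010 for Cd9, chr7:45238790-45239089 for Cd37 and chr3:106790100-106790399 for Cd53). Capitals mark GAGGAAG, the core of sites of the myeloid factor PU.1, the E-box CACGTG and the GC box GGGCGG, on either strand.
Cd63: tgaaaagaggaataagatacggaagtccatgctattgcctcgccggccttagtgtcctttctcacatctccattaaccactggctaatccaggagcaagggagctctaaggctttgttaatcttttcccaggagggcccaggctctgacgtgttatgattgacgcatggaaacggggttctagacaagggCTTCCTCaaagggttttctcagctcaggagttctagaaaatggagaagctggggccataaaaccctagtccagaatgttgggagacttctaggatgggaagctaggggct
Cd9: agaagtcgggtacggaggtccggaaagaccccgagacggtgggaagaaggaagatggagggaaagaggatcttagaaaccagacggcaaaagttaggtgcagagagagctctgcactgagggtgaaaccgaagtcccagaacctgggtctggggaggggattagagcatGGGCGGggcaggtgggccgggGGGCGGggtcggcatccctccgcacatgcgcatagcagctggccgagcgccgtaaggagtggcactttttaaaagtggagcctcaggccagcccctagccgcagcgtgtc
Cd37: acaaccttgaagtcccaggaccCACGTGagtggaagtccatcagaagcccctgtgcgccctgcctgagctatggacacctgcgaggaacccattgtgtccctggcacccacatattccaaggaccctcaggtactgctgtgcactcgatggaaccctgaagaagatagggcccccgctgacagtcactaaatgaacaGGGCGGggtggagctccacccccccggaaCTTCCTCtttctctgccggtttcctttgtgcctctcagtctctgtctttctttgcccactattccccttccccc
Cd53: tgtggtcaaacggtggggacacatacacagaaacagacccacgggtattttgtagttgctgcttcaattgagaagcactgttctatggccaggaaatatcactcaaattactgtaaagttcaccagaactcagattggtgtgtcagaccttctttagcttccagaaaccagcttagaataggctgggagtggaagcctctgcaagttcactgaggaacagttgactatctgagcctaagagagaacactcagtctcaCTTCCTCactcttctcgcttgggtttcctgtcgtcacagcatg
The PU.1-type letters stood 60 bases before the start of Cd63, 24 bases before that of Cd37 and at base 8 of the Cd53 transcript, counted to the leftmost base as printed, each time as the reverse complement CTTCCTC. Cd9 had none and had GC boxes at 81 and 60 bases before its start. Of all 32851 windows of this length, 13.6% held GAGGAAG, 7.15% held CACGTG and 35.7% held GGGCGG on either strand. Over the 11 windows of the 7 members, GAGGAAG occurred in 4 (those of Cd63, Cd37 and Cd53 and 1 of the 4 of Cd82), CACGTG in 1, that of Cd37, and GGGCGG in 6, of 5 genes. None of these matches overlapped another. A match describes the letters and not a bound site.

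The libraries held 30798377 to 32874316 counts for the Cd5l-transgenic mice and 31007840 and 34794617 counts for the 5xFAD mice. As a check of the labels, Cd5l stood at 7230, 10680 and 6438 counts in Cd5l-transgenic replicates 1, 2 and 3, against 45 and 9 counts in 5xFAD replicates 1 and 3. Itgam, which encodes CD11b, was present at 305.5 to 363.4 CPM (counts scaled to library size with TMM factors) with the transgene and 343.9 and 354.7 CPM in 5xFAD. Summed over 13 homeostatic microglia markers, the libraries held 30408 to 32566 CPM with the transgene and 30274 to 31742 CPM in 5xFAD. Libraries also differed in RNA of other cell types. Cd5l-transgenic replicate 2 was highest in 7 of 7 oligodendrocyte markers (4179 CPM in sum, against 335.02 to 1063 CPM in the other libraries), and 5xFAD replicate 3 in 7 of 7 choroid plexus and ependymal markers (2742 CPM, against 247.8 to 515.1 CPM). Neutrophil markers summed to 183.9, 143.8 and 69.96 CPM with the transgene and 53.8 and 71.6 CPM in 5xFAD. Monocyte (25.6 to 38.8 against 17.3 to 21.5 CPM) and erythroid (7.40 to 20.8 against 1.47 to 2.41 CPM) sums were higher in every transgenic library. So were endothelial sums (582.6 to 1062 against 519.6 to 568.9 CPM). Neuron sums were too, but the groups nearly touched (2.63 to 11.2 against 2.45 to 2.61 CPM). Oligodendrocyte, neutrophil and mural sums overlapped between the genotypes. DESeq2 called 3 of 8 mural and fibroblast and 1 of 5 erythroid genes higher, beside 0.0752% of all genes with an adjusted p. In such bulk samples a change in the number of cells of a type and a change in RNA per cell cannot be told apart.

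Tetraspanin RNA in these cells was dominated by the chosen members. Levels of different genes were compared as TPM (counts scaled to gene length and library total), computed from the deposited counts and the gene lengths of the table. The 7 members made up 83.8%, 82.5% and 84.3% of the summed TPM of 31 tetraspanin genes in Cd5l-transgenic replicates 1, 2 and 3, and 85.99% and 83.03% in 5xFAD replicates 1 and 3. The order within the 7 was the same in all 5 libraries, from Cd9 down through Cd81, Cd53, Cd63, Cd37, Cd82 and Cd151.

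Cd9, a partner of integrins and of EWI immunoglobulin proteins, was the most abundant at 1797 ± 181 TPM with the transgene (SD, n = 3) and 1996 ± 274 TPM in 5xFAD (SD, n = 2). It ranked 57 among all tested genes by mean TPM. Cd81, which encodes a tetraspanin of the cell surface and of vesicles, stood at 1300 ± 83.5 TPM and 1280 ± 12.8 TPM in the same groups, and Cd53 at 1089 ± 78.1 TPM and 1072 ± 52.98 TPM. Cd63 stood at 454 ± 10.1 TPM with the transgene and 536 ± 137 TPM in 5xFAD, and Cd37 at 377 ± 23.2 TPM and 411 ± 48.2 TPM. Cd82, known as a suppressor of metastasis, reached 153 ± 7.96 TPM and 155 ± 7.42 TPM. Cd151, a partner of laminin-binding integrins, was lowest at 76.7 ± 8.58 TPM and 72.3 ± 3.57 TPM. Neighbours in this order did not overlap across the 5 libraries except Cd63 and Cd37, whose ranges met (439 to 634 TPM and 351 to 445 TPM) although Cd63 was the higher in each library.

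**Figure D1:**
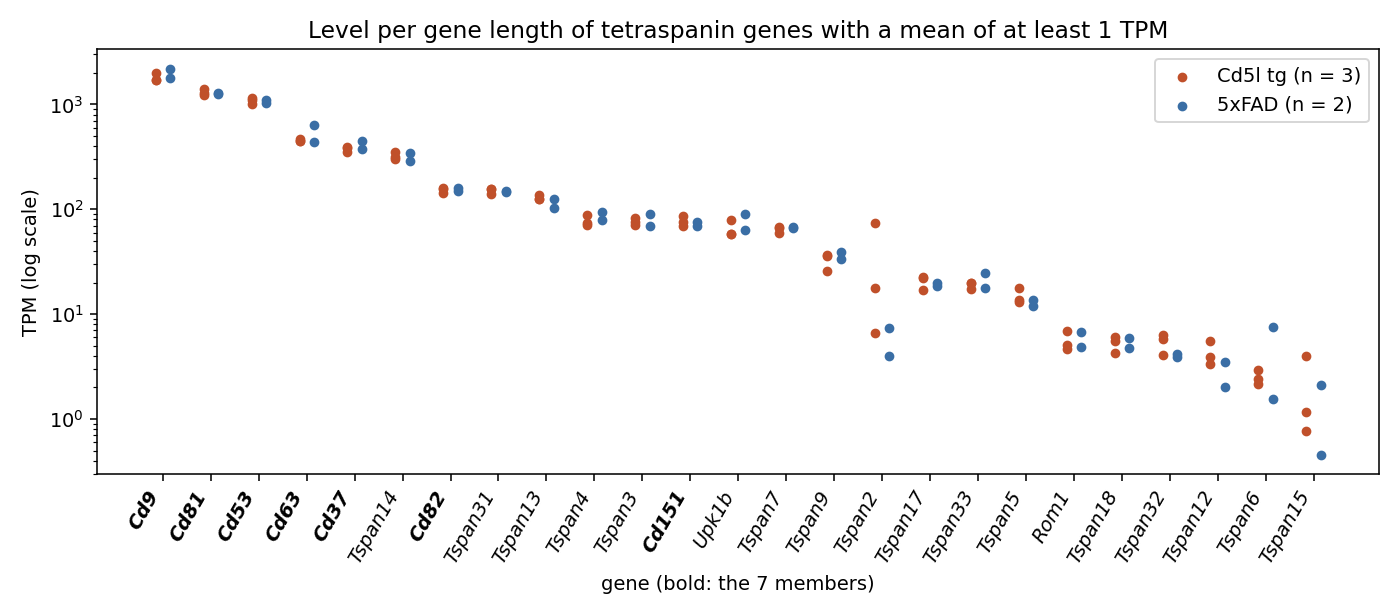
Level per gene length (TPM, log scale) of the 25 tetraspanin genes averaging 1 TPM or more, with 1 point per library, Cd5l-transgenic left of 5xFAD in each pair. Bold names mark the 7 members, of which Cd9, Cd81, Cd53, Cd63 and Cd37 lie above every other tetraspanin by mean TPM.

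No member was called different between the genotypes. With the edgeR quasi-likelihood test adjusted over all 17724 genes by Benjamini-Hochberg (threshold 0.05), 0 of 7 passed in either direction, where the share called among all tested genes was 0%. DESeq2 also called 0 of 7 (0.0752% of genes with an adjusted p), as did limma-voom. At an unadjusted edgeR p under 0.05 there were 0 of 7 members, against 2.63% of all tested genes. The test did not call Cd5l itself either (log2 fold change 8.23, SE 0.60, edgeR adjusted p = 0.448, DESeq2 adjusted p = 5.79e-19), so an uncalled member is not shown to be unchanged. The median log2 fold change of the 7, Cd5l-transgenic over 5xFAD, was -0.06, and 6 of 7 lay below 0, beside a median of -0.03 and 57.3% below 0 over all tested genes. With DESeq2 size factors 5 of 7 lay below 0, and without 5xFAD replicate 1 2 of 7, with a median of 0.024, whereas without 5xFAD replicate 3 it was 7 of 7, with a median of -0.093.

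The lysosomal and vesicle tetraspanin Cd63 (ENSMUSG00000025351, chromosome 10, 128736858 to 128748691, GRCm39) had the largest difference of the 7. It had 494.6, 508.1 and 479.0 CPM in Cd5l-transgenic replicates 1, 2 and 3, against 739.2 and 469.7 CPM in 5xFAD replicates 1 and 3. The 3 transgenic values lay close together and between the 5xFAD values, of which replicate 1 stood 1.57 times above replicate 3. The means were 494 ± 14.6 CPM with the transgene (SD, n = 3) and 604 ± 191 CPM in 5xFAD (SD, n = 2). The log2 fold change was -0.29 (SE 0.19), with a 95% interval of -0.76 to 0.18 (edgeR adjusted p = 0.995). Leaving out 5xFAD replicate 1 gave 0.07, and leaving out 5xFAD replicate 3 gave -0.58 (edgeR adjusted p = 0.399).

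Reads of Cd63 may have been shared with Cd63-ps, its pseudogene by name, counted in the same table. Cd63-ps had 1478, 1522 and 1474 counts with the transgene and 1996 and 1575 counts in 5xFAD. It held 8.38% to 8.81% of the counts of both genes in each library, so that the pair together stood at 542.3, 555.8 and 523.6 CPM with the transgene and 806.7 and 514.2 CPM in 5xFAD. The excess of 5xFAD replicate 1 was present in both rows. As reads may have been shared, the rows cannot be read as separate observations.

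Cd9 (ENSMUSG00000030342, chromosome 6, 125437229 to 125471754) also peaked in 5xFAD replicate 1, more weakly. Relative to the gene's own mean, Cd5l-transgenic replicate 3 stood at 0.07 log2 units for Cd9 and -0.15 for Cd63. It had 1028, 1026 and 1196 CPM with the transgene and 1418 and 1070 CPM in 5xFAD, and the groups overlapped. The means were 1083 ± 97.9 CPM (SD, n = 3) and 1244 ± 246 CPM (SD, n = 2), with a log2 fold change of -0.20 (SE 0.15, 95% interval -0.57 to 0.17, edgeR adjusted p = 0.995). The value was 0.02 without 5xFAD replicate 1 and -0.39 without 5xFAD replicate 3.

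Cd37 (ENSMUSG00000030798, chromosome 7, 44883056 to 44888539), the leukocyte tetraspanin known to bind the beta-glucan receptor dectin-1, was the third with this peak. It had 403.4, 366.0 and 405.3 CPM with the transgene, against 497.1 and 385.7 CPM in 5xFAD, where replicate 1 was again the highest library. Its log2 fold change was -0.17 (SE 0.13, 95% interval -0.49 to 0.14, edgeR adjusted p = 0.995), and 0.02 without 5xFAD replicate 1 against -0.35 without 5xFAD replicate 3. Of the B-cell markers, Cd79a, Ms4a1 and Pax5 stood at no more than 0.407 CPM in any library, Cd79b at 5.25 to 8.93 CPM and Ighm at 325.4 to 380.4 CPM.

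**Figure D2:**
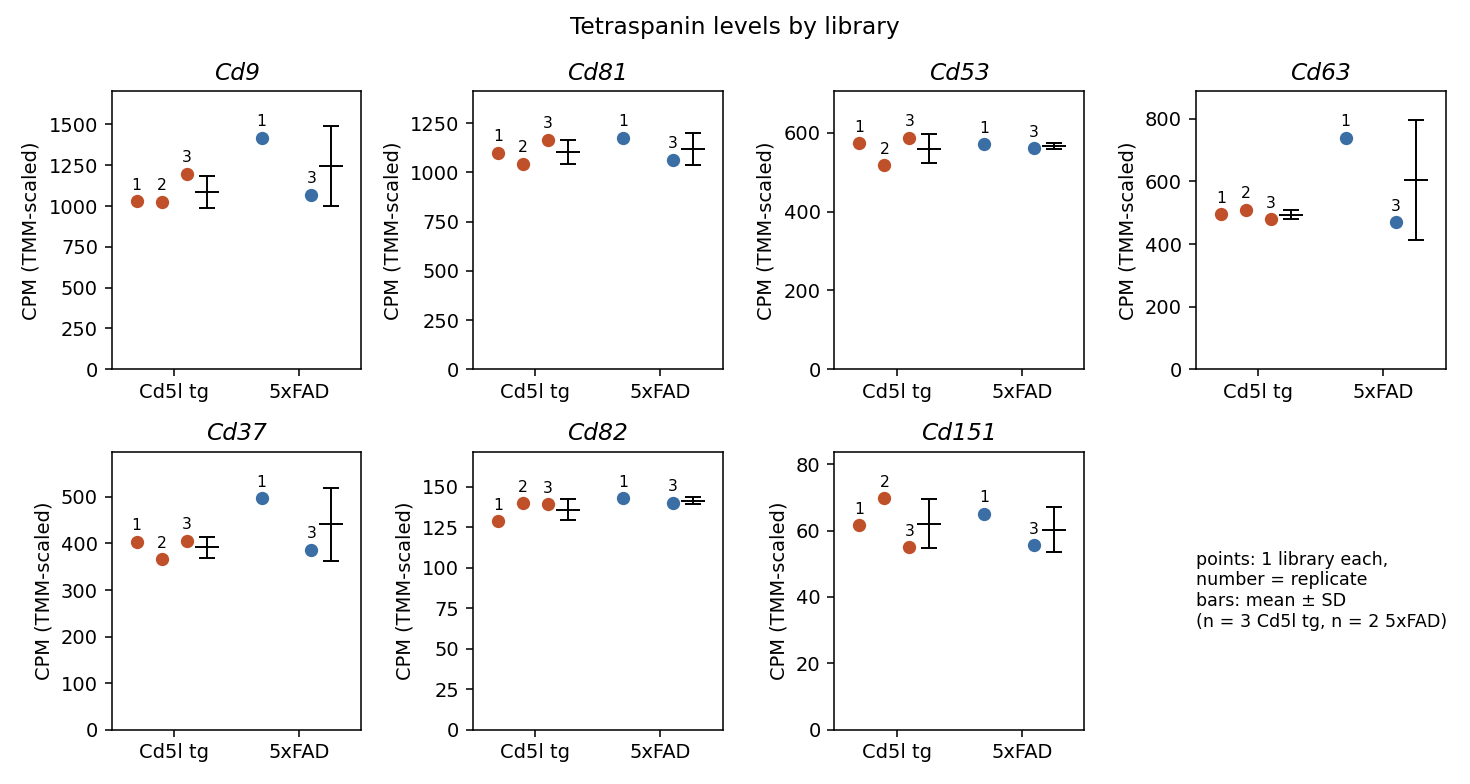
TMM-scaled CPM of the 7 tetraspanins, 1 point per library with its replicate number, Cd5l-transgenic left of 5xFAD, with mean ± SD bars (n = 3 and n = 2). For Cd63, Cd9 and Cd37 the 5xFAD replicate 1 point stands above the other 4 libraries, and the transgenic points lie just above 5xFAD replicate 3 for Cd63 and on both sides of it for Cd9 and Cd37.

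The library that set these values also stood apart in other genes of the plaque-associated state. Of 15 plaque-associated markers, 14 were highest in 5xFAD replicate 1. So were 5 of the 7 members, with Cd81 and Cd82 by small margins beside Cd63, Cd9 and Cd37. The share of all tested genes highest in that library was not computed. Its TMM factor was the lowest (0.952, against 1.005 to 1.02), which raises all its CPM values. Without TMM factors 5xFAD replicate 1 was still the highest library for Cd63, Cd9 and Cd37, at 703.9, 1351 and 473.4 CPM. The next highest libraries stood at 517.4, 1203 and 407.8 CPM. Cd81 and Cd82 were highest in other libraries on that scale. The 15 markers, of which Cd68 and Ctsd are also on the list of lysosomal genes, summed to 40660, 40320 and 32992 CPM in Cd5l-transgenic replicates 1, 2 and 3, against 57794 and 32930 CPM in 5xFAD replicates 1 and 3. The part of that state in the values of Cd63, Cd9 and Cd37 was not tested.

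The genes whose profile lay closest to that of Cd63 were sought by the mean absolute difference of centred log2 CPM over the 5 libraries, among 7124 other genes that averaged 20 CPM or more. The nearest was its own pseudogene, whose counts may include reads of Cd63, at 0.021 log2 units. Next came Pld3, which encodes a lysosomal nuclease (0.030), Rftn1, which encodes a lipid-raft protein (0.034), Trem2, the lipid-sensing receptor of microglia (0.035), and Alcam, an adhesion molecule (0.036). Trem2 had 1719, 1796 and 1672 CPM with the transgene and 2407 and 1598 CPM in 5xFAD. Pld3 had 478.3, 518.7 and 505.3 CPM with the transgene and 762.2 and 480.8 CPM in 5xFAD. As the measure covers only 5 libraries, 148 genes lay within 0.1 log2 units.

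**Figure D3:**
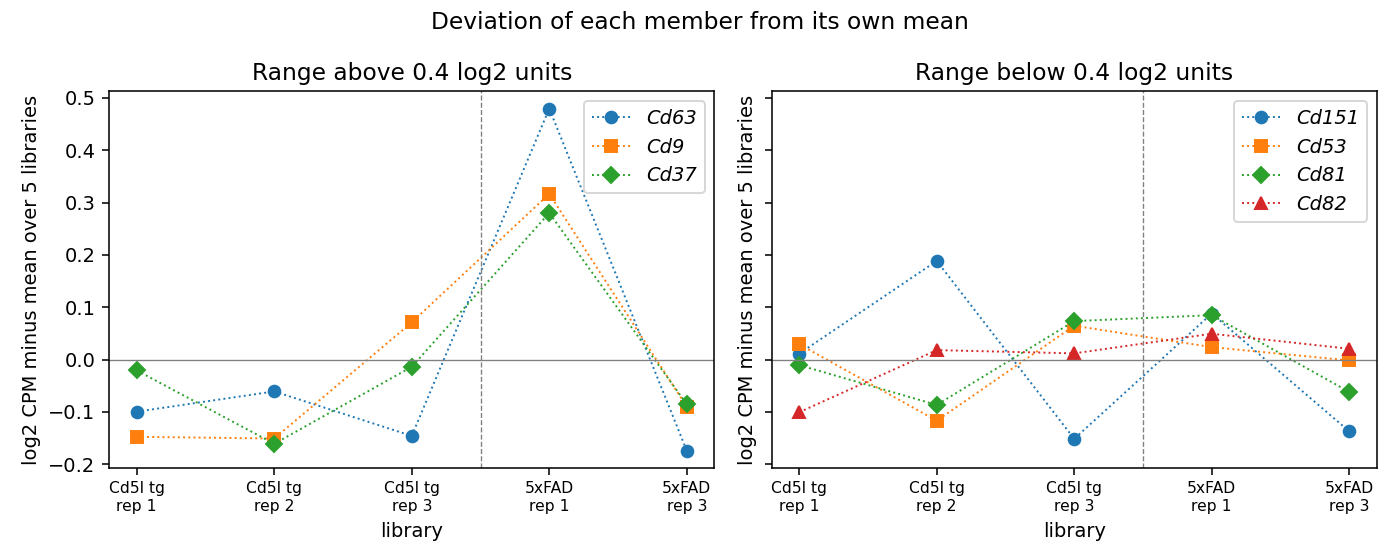
Log2 CPM of each member minus its own mean over the 5 libraries, in library order, with Cd5l-transgenic libraries left of the dashed line and 5xFAD libraries right of it. Cd63, Cd9 and Cd37 peak in 5xFAD replicate 1, at 0.48, 0.32 and 0.28, whereas Cd53, Cd81 and Cd82 stay within 0.12 of their means and Cd151 peaks in Cd5l-transgenic replicate 2.

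Cd81 (ENSMUSG00000037706, chromosome 7, 142606476 to 142621671) varied little between mice. It had 1101, 1044 and 1167 CPM in the transgenic libraries, against 1176 and 1062 CPM in the 5xFAD libraries, with means of 1104 ± 61.3 CPM (SD, n = 3) and 1119 ± 80.4 CPM (SD, n = 2). The highest library exceeded the lowest 1.13 times, and the groups interleaved. The log2 fold change was -0.02 (SE 0.10, 95% interval -0.27 to 0.23, edgeR adjusted p = 0.999).

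Cd53 (ENSMUSG00000040747, chromosome 3, 106667237 to 106697465), the other leukocyte tetraspanin, was as even. Its values were 573.4, 518.1 and 587.6 CPM with the transgene, against 571.2 and 561.2 CPM in 5xFAD. The transgenic libraries enclosed the 5xFAD ones. The log2 fold change was -0.02 (SE 0.09, 95% interval -0.24 to 0.21, edgeR adjusted p = 0.999), and its sign turned under scaling by DESeq2 size factors or the upper quartile (0.0024 and 0.0023). In profile, Cd53 and Cd81 were the closest pair of members (0.040 log2 units), Cd9 and Cd37 the next (0.053), and Cd63 and Cd53 the farthest (0.205). Cd37 and Cd9 lay nearer to Cd81 (0.078 and 0.093) than to Cd63 (0.1198 and 0.1204).

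Cd82 (ENSMUSG00000027215, chromosome 2, 93249456 to 93293485) was the only member whose groups did not overlap on the TMM scale. It had 128.7, 139.8 and 139.2 CPM with the transgene and 142.9 and 140.04 CPM in 5xFAD, so that the nearest values of the groups were almost equal. Groups without overlap and lower with the transgene made up 8.69% of all tested genes, beside 1 of 7 members. Without TMM factors the groups overlapped, at 129.4, 142.4 and 140.02 CPM with the transgene and 136.1 and 142.8 CPM in 5xFAD. The log2 fold change was -0.06 (SE 0.07, 95% interval -0.24 to 0.12, edgeR adjusted p = 0.995), and -0.02 without Cd5l-transgenic replicate 1.

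Cd151 (ENSMUSG00000025510, chromosome 7, 141047305 to 141051386) had the lowest counts of the 7 members, 1817 to 2223 with the transgene and 1918 and 1968 in 5xFAD. Its levels were 61.6, 69.7 and 54.98 CPM with the transgene, against 64.99 and 55.5 CPM in 5xFAD. Cd5l-transgenic replicate 2 was the highest library, and the groups overlapped. The log2 fold change was 0.04 (SE 0.13, 95% interval -0.27 to 0.35, edgeR adjusted p = 0.996), with the opposite sign without Cd5l-transgenic replicate 2 (-0.03) or without 5xFAD replicate 3 (-0.07). The same replicate 2 was highest in 6 of 6 endothelial, 7 of 7 oligodendrocyte and 7 of 8 mural and fibroblast markers. It was also highest in 5 of 6 neuron and 5 of 5 erythroid markers, but in 0 of 6 neutrophil markers. Endothelial markers summed to 1062 CPM there, against 582.6 and 609.0 CPM in transgenic replicates 1 and 3 and 568.9 and 519.6 CPM in 5xFAD. Transgenic replicate 3, with 609.0 CPM, had the lowest Cd151 level. The part of these cell types in the Cd151 value was not tested.

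**Figure D4:**
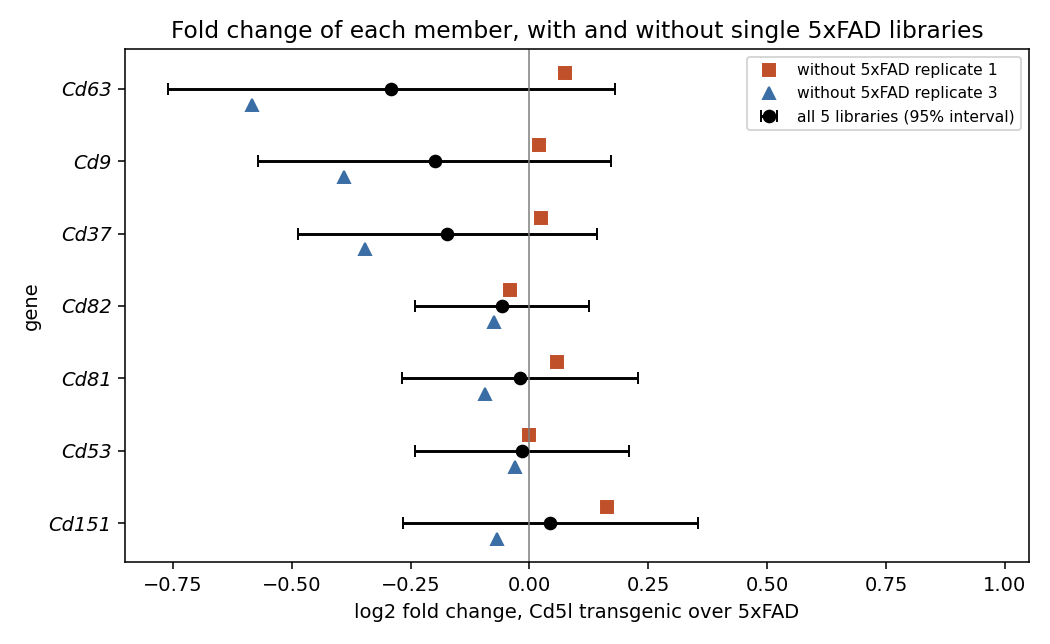
Log2 fold change of each member, Cd5l-transgenic over 5xFAD, with all 5 libraries (circles with 95% intervals) and without 5xFAD replicate 1 (squares) or replicate 3 (triangles). All intervals include 0, and for Cd63, Cd9 and Cd37 the squares lie slightly above 0 and the triangles at -0.58, -0.39 and -0.35.

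Of the other 24 tetraspanin genes, 20 had enough counts to be tested. Tspan14, Tspan31, Tspan13, Tspan4 and Tspan3 had the highest levels per length. Tspan14, which escorts the protease ADAM10, led at 318 TPM on average. In edgeR 0 of 20 were called in either direction and in DESeq2 0, with 1 at an unadjusted edgeR p under 0.05 (2.63% of all tested genes). That gene was Tspan8, named after its values were seen, with 6, 8 and 5 counts with the transgene and 16 and 22 counts in 5xFAD. The median log2 fold change was -0.08, between -0.11 without Cd5l-transgenic replicate 2 and 0.034 without 5xFAD replicate 3. It was -0.02 without 5xFAD replicate 1 or without Cd5l-transgenic replicate 1 or 3, and 0.016 with a filter of 5 CPM in 2 samples. Without overlap, 1 gene was higher and 1 lower (7.2% and 8.69% of all tested genes).

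Among the more abundant of them, Tspan2, a tetraspanin of oligodendrocytes, had the smallest unadjusted p. It stood at 24.95, 104 and 9.14 CPM with the transgene and 6.03 and 10.1 CPM in 5xFAD, a log2 fold change of 2.504 (SE 1.12, edgeR adjusted p = 0.995) that was 1.08 without Cd5l-transgenic replicate 2. The oligodendrocyte marker sum followed the same order among the transgenic libraries, 1063, 4179 and 362.07 CPM, against 364.4 and 335.02 CPM in 5xFAD, and its part was not tested. Tspan32, a tetraspanin of blood cells, had 10.8, 7.59 and 11.6 CPM with the transgene and 7.73 and 7.59 CPM in 5xFAD (log2 fold change 0.38, SE 0.21). Tspan13 had 92.1, 100.05 and 90.8 CPM with the transgene, all above the 80.98 and 89.4 CPM of 5xFAD (log2 fold change 0.15, SE 0.09, and 0.08 without 5xFAD replicate 1).

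Partners of tetraspanins gave no call either. Of 23 measured genes edgeR and DESeq2 each called 0, with 1 at an unadjusted edgeR p under 0.05 (2.63% of all tested genes). In log2 fold change 14 lay above 0 and 9 below, beside 57.3% below 0 over all tested genes. The median was 0.03, beside -0.03 over all tested genes. That median was 0.073 without Cd5l-transgenic replicate 2, 0.071 without 5xFAD replicate 1 and 0.0052 without 5xFAD replicate 3. Without overlap, 2 partner genes were higher and 1 lower (7.2% and 8.69% of all tested genes). Ifitm3, an interferon-induced membrane protein related to a CD81 partner, had 67.3, 77.998 and 65.2 CPM with the transgene, all above the 54.2 and 59.8 CPM of 5xFAD (log2 fold change 0.30, SE 0.11, edgeR adjusted p = 0.995). Igsf8, the EWI protein bound by CD9 and CD81, was lower in all 3 transgenic libraries, at 81.6, 85.3 and 83.3 CPM, against 100.5 and 86.3 CPM in 5xFAD. Its log2 fold change was -0.16 (SE 0.09), and -0.05 without 5xFAD replicate 1. Clec7a, which encodes dectin-1, the receptor bound by CD37, and is also a plaque-associated marker, had 527, 499.9 and 639 CPM with the transgene and 756 and 591 CPM in 5xFAD. Its log2 fold change was -0.28 (SE 0.16), and -0.09 without 5xFAD replicate 1.

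Of 17 measured genes of vesicle formation, 10 lay below 0 and 7 above, with a median log2 fold change of -0.02. Over all tested genes 57.3% lay below 0, with a median of -0.03. The median turned to 0.00065 with DESeq2 size factors, 0.017 without Cd5l-transgenic replicate 2 and 0.039 without 5xFAD replicate 1, and was -0.055 without 5xFAD replicate 3. The largest difference was that of Smpd3, a neutral sphingomyelinase, named after its values were seen, with 22, 47 and 46 counts with the transgene and 12 and 38 counts in 5xFAD (log2 fold change 0.64, SE 0.54). edgeR and DESeq2 each called 0, with 1 at an unadjusted edgeR p under 0.05 (2.63% of all tested genes). That was Sdc4, the syndecan that binds syntenin, at 54.2, 50.5 and 57.2 CPM with the transgene and 66.7 and 59.8 CPM in 5xFAD. Its log2 fold change was -0.23 (SE 0.09, edgeR adjusted p = 0.995), and -0.15 without 5xFAD replicate 1. Rab27a, a GTPase that docks multivesicular bodies at the surface, was higher in all 3 transgenic libraries, at 86.5, 81.9 and 82.7 CPM, against 77.5 and 76.7 CPM (log2 fold change 0.12, SE 0.07). It was the 1 vesicle gene higher without overlap and Sdc4 the 1 lower, beside 7.2% and 8.69% of all tested genes. Rab35, another GTPase of vesicle release, had a log2 fold change of -0.06 (SE 0.08), between -0.10 without 5xFAD replicate 3 and -0.0059 without Cd5l-transgenic replicate 2.

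Lysosomal genes, the compartment that holds CD63, lay below 0 in 14 of 16 measured cases, beside 57.3% of all tested genes. Their median log2 fold change was -0.06, beside -0.03 over all tested genes, with 0 calls by edgeR or DESeq2. Of the 16, 13 were highest in 5xFAD replicate 1, the library with the lowest TMM factor, a count without a computed share over all tested genes. Without that library the median was 0.065, with 12 of 16 above 0, against -0.21 and 16 of 16 below 0 without 5xFAD replicate 3. Mcoln1, the lysosomal calcium channel, was the 1 gene at an unadjusted edgeR p under 0.05 (2.63% of all tested genes). It had 101.2, 107.6 and 107.4 CPM with the transgene and 125 and 117 CPM in 5xFAD, a log2 fold change of -0.20 (SE 0.07, edgeR adjusted p = 0.995). The cathepsin genes Ctsl and Ctsz stood at -0.20 (SE 0.14) and -0.18 (SE 0.15), and at 0.0035 and 0.07 without 5xFAD replicate 1.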

How the data were processed

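RNA-seq counts of 5 libraries were used as the authors deposited them: whole-number counts per Ensembl gene, not normalized. Per the submitters' processing notes, the genome build was GRCm39 (mm39). No aligner, counter, annotation release or strand setting is stated, so reads of antisense or overlapping genes may not have been told apart. Annotated overlaps of members held at most 573 counts (R74862, at Cd81). Groups came from the titles. The column of Cd5l-transgenic replicate 3 was matched to its library name with ADAB written for ABAD. No per-sample column was left unused.

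Genes were filtered with filterByExpr and tested with edgeR 4.0.16 (TMM factors 0.952 to 1.02, robust quasi-likelihood, genotype alone, R 4.3.3). Benjamini-Hochberg adjustment covered all tested genes. Standard errors were derived from each gene's F value, and 95% intervals from its degrees of freedom. An exact two-sided rank test of 3 against 2 libraries cannot go below p = 0.2. A single count was worth 0.0282 to 0.0339 CPM. Every pair of libraries differed by more than sampling noise (chi-square per degree of freedom 21.6 to 61.7), so all were kept as separate samples. TPM used the table's gene lengths. Centred log2 values used an offset of 0.5 CPM. Alternatives used DESeq2 1.42.0 and limma 3.58.1. The scripts were tested on simulated counts.

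The 7 members and the gene lists were chosen with earlier results of these data known. Of each list of other tetraspanins, partners, vesicle and lysosomal genes, the text names the 3 genes with at least 5 CPM on average and the smallest unadjusted p, and for tetraspanins also the 5 highest per length. List genes absent under their symbol, such as Vamp7, were not analysed here. Promoter windows are from RefSeq (GRCm38.p6), and all 7 members matched. Their coordinates differ in build from those of the count table.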

Additional observations from a re-analysis of the deposited data

How the results depend on the processing

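Under 14 alternatives, 0 of 98 refitted member values passed the threshold (lowest adjusted p = 0.148, for Cd63 by edgeR with Cd5l-transgenic replicate 2 and 5xFAD replicate 3 left out together, log2 fold change -0.59, a setting chosen after seeing the data). Of these 98 values, 19 changed sign. Counts of called genes over the whole table were 9 higher and 2 lower by DESeq2, 0 to 10 lower and 0 higher with single libraries left out, and 13 higher and 28 lower with those 2 libraries left out together. A lone 5xFAD library in a fit is assumed to vary like the other group. Log2 fold changes without single libraries ran from -0.39 to 0.020 for Cd9, -0.58 to 0.074 for Cd63, -0.093 to 0.057 for Cd81, -0.35 to 0.024 for Cd37, -0.034 to 0.049 for Cd53, -0.068 to 0.16 for Cd151, -0.38 to 0.0035 for Ctsl and -0.40 to 0.068 for Ctsz. Cd53 turned to 0.0024 with DESeq2 size factors or the DESeq2 test, 0.0023 with upper-quartile factors, 0.0014 in limma-voom and 0.015 with a filter of 5 CPM in 2 samples, which also turned Cd81 to 0.013. With the 2 libraries left out together Cd53 stood at 0.032 and Cd151 at -0.15. For these turns of sign the cause was not tested.

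Replicate numbers 1 and 3 occur in both genotypes. Deviations from the group means correlated at 0.183 for number 1 and -0.237 for number 3. In the group without the transgene, the deviations of numbers 1 and 3 mirror each other by construction. Crossing the numbers therefore only turned the signs (-0.183 and 0.237), and these values cannot decide whether the numbers pair the mice. The main test used genotype alone, without pairing by number. With the replicate block edgeR called 0 genes in either direction, and Cd81 stood at 0.020, Cd53 at 0.036 and Cd151 at -0.046. Each member had at least 1817 counts in every library.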
